A study of Mus musculus with 6 samples.

Results

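The genes described are 10 immune checkpoint genes, the ligands Cd274 (PD-L1) and Pdcd1lg2 (PD-L2), the co-inhibitory receptors Pdcd1 (PD-1), Ctla4, Lag3, Tigit, Havcr2 (TIM-3) and Cd96, and the co-stimulatory receptors Icos and Cd226 (DNAM-1). They were taken by name, and all 10 are among the 33157 rows of the deposited count table. The RNA came from ILC3s, the IL-22-producing group 3 innate lymphoid cells of the gut wall, which had been isolated from wild-type mice, out of the small intestine, as lineage-negative, CD127+, KLRG1- cells with dim CD45 and high CD90.2. Cells were held for 4 h in complete RPMI medium with insulin-like growth factor 1 (IGF-1, 200 ng/mL) and interferon-γ (IFN-γ, 20 ng/mL), or with the same dose of IFN-γ and no IGF-1 (the controls). There were 3 libraries in each group. Cultures without IFN-γ were not analysed here, so each value below describes IFN-γ-exposed cells with or without IGF-1, and the response to IFN-γ itself was not measured. Neither mouse numbers nor pooling are given in the labels, and p-values reflect variation among libraries that may all be technical.

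Immune checkpoints are pairs of surface proteins that tune lymphocyte activation. PD-L1 and PD-L2 engage PD-1, whose tail recruits phosphatases that dampen receptor signalling, and IFN-γ induces PD-L1 through JAK kinases and the transcription factor IRF1. TIGIT, CD96 and CD226 compete for the same poliovirus-receptor and nectin ligands. CD226 activates the cell and TIGIT inhibits it, while the role of CD96 varies with the cell type. In the gut, ILC3s meet T cells and myeloid cells that carry the matching ligands and receptors.

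The PD-1 ligands are encoded by neighbouring genes on chromosome 19, with no other protein-coding gene between them in the GENCODE M21 annotation, and 1 of the pair passed the test with IGF-1 while the other did not, so the 250 bases before each start site are shown. The sequences are from RefSeq on GRCm38.p6, a build other than the GRCm39 of the deposited counts. They lie at chr19:29367188-29367437 and chr19:29410669-29410918, both on the plus strand.
Cd274: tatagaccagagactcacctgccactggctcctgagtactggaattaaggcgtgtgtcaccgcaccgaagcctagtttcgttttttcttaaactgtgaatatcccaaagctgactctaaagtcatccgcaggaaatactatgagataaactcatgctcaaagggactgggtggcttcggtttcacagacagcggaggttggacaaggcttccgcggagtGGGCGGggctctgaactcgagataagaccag
Pdcd1lg2: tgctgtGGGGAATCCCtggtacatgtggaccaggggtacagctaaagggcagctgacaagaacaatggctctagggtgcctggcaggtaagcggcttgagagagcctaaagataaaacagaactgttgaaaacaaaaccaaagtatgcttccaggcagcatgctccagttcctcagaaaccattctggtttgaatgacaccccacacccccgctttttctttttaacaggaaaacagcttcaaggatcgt
Capitals mark matches to 4 motifs searched on both strands. The GC box GGGCGG was found once before Cd274, from base -31 to -26, and in 32.9% of 27025 mouse promoter windows of the same length. The NF-kB-type pattern (GGG, any 5 bases, CC) was found once before Pdcd1lg2, where the same bases match on both strands, from base -244 to -235, and in 45.4% of all windows. The GAS pattern TTCNNNGAA (7.18% of all windows) and the interferon response element (GAAA, any 2 bases, GAAA, in 3.04%) had no match in either window. These matches are letters in a window and were not tested for binding.

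Total counts ran from 36171528 to 39206449 in the IGF-1 libraries and from 32573713 to 38076876 in the control libraries. The sorted identity was visible in both groups, with Kit (the stem-cell factor receptor of ILC3s) at 639 to 688 CPM (read counts relative to the TMM-scaled library size) with IGF-1 and 605 to 764 CPM in controls, and Il7r (CD127) at 365 to 462 CPM with IGF-1 and 436 to 478 CPM in controls. Eomes, a factor of natural killer cells, had no count in any library. Dendritic cell and macrophage markers, cells in which PD-L1 and PD-L2 are common, summed over 14 genes to 19.7 to 21.9 CPM with IGF-1 and 17.4 to 22.3 CPM in controls. Control replicate 3 stood apart in the plasma cell gene Jchain, at 519 CPM against 0.103 to 0.209 CPM in each of the other 5 libraries.

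With IGF-1, Cd274 was lower, and it was the only member whose difference passed the test across all genes, as plotted by library and as a log2 fold change. Its level was 105, 95.5 and 108 CPM in the IGF-1 libraries, against 170, 184 and 193 CPM in the control libraries. Every IGF-1 library lay below every control library. The mean was 103 ± 6.61 CPM with IGF-1 and 182 ± 11.6 CPM in controls (SD, n = 3 each), a decrease with a percent change of -43.5. The log2 fold change of IGF-1 over control was -0.82 (SE 0.12, adjusted p = 0.0222 by edgeR's quasi-likelihood test with Benjamini-Hochberg adjustment), and the raw p ranked 19th of 13483 genes. Epithelial cells, which can carry PD-L1, had 9 markers listed, and these summed to 19.3 to 27.2 CPM with IGF-1 and 40.3 to 55.1 CPM in controls. Most of that was Epcam, which fell (-1.13, SE 0.20, adjusted p = 0.0442, edgeR). Of the 5 markers tested, 5 had a negative log2 fold change and 0 a positive one. Lgals4 had 4.44 to 5.05 CPM with IGF-1 and 6.19 to 6.97 CPM in controls (-0.49, SE 0.30, adjusted p = 0.578, edgeR). The 4 not tested, Krt20, Fabp1, Fabp2 and Cdh1, were each at or under 0.279 CPM in every library. The part of such cells in the Cd274 values was not tested. In bulk libraries, fewer cells that carry a transcript and less of it per cell cannot be told apart.

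Over all genes 0.497% passed the test, with 31 higher and 36 lower, and 1 of the 10 members did. Cd274 was also called by limma-voom (0.712% of all genes called), without a filter on low counts (1.84%) and with a stricter filter (2.06%). The call of Cd274 held without control replicate 1 (adjusted p = 0.0327). It was lost without control replicate 2 (0.0763), control replicate 3 (0.140), IGF-1 replicate 1 (0.134), IGF-1 replicate 2 (0.144) or IGF-1 replicate 3 (0.0627), each an adjusted p from edgeR, while the log2 fold change stayed between -0.87 and -0.77. An exact two-sided permutation test over the 6 libraries gave p = 0.1, the smallest that 3 libraries against 3 allow.

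**Figure D1:**
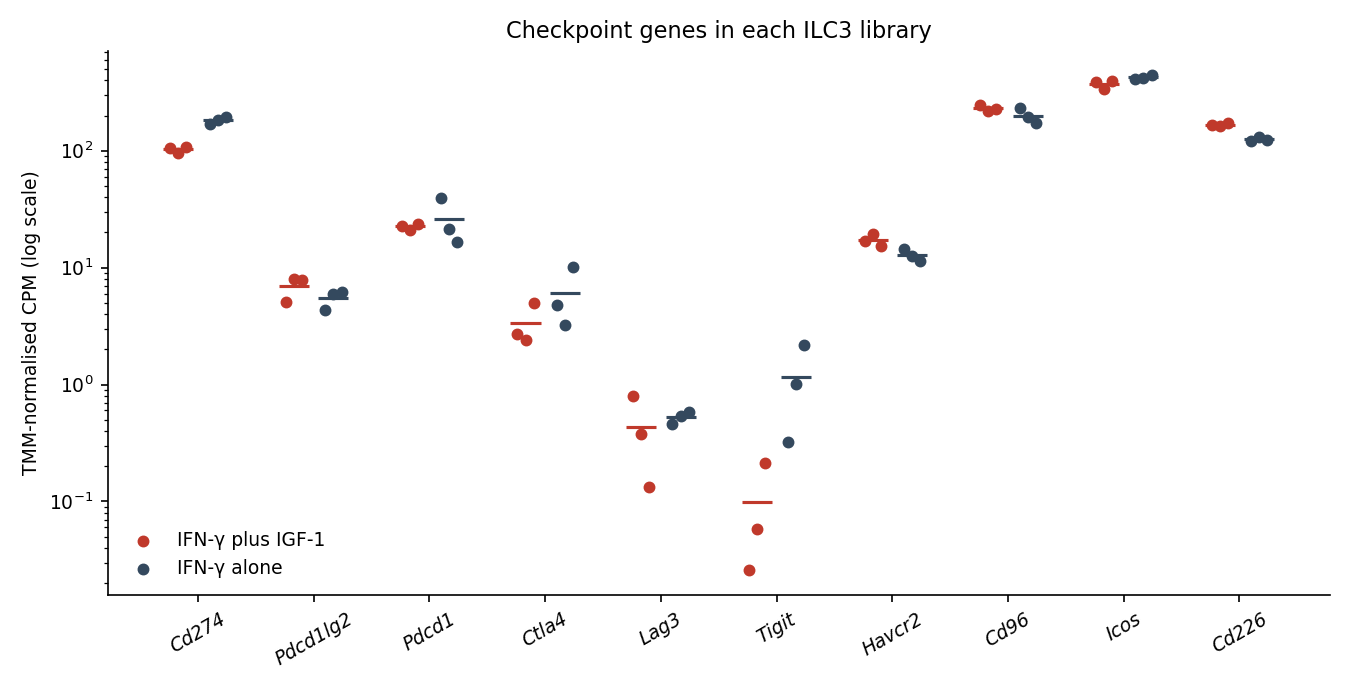
Level of each of the 10 checkpoint genes as TMM-normalised CPM on a log axis, with 1 point per library (red, IFN-γ plus IGF-1, and dark, IFN-γ alone) and a bar at the mean of 3 libraries. Cd274 lies at 95.5 to 108 CPM with IGF-1 and 170 to 193 CPM in controls, and the Tigit points are all under 2.2 CPM.

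The other PD-1 ligand gave no call, and the difference between the ligands was not tested. Pdcd1lg2 had 5.12, 8.06 and 7.88 CPM with IGF-1, against 4.35, 5.92 and 6.13 CPM in controls, and the groups overlapped. Its log2 fold change was 0.36 (SE 0.32, adjusted p = 0.732, edgeR). The receptor of both ligands, Pdcd1, had 22.5, 21.1 and 23.8 CPM with IGF-1 and 39.6, 21.5 and 16.5 CPM in controls. The IGF-1 libraries lay close together inside a wide control range set by replicate 1, and the log2 fold change of -0.20 (SE 0.29, adjusted p = 0.847, edgeR) was 0.24 without that library.

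Among the nectin and poliovirus-receptor binders, Cd226, the activating member, had 165, 162 and 173 CPM with IGF-1, against 121, 131 and 123 CPM in controls. Every IGF-1 library lay above every control library. The mean was 167 ± 5.65 CPM with IGF-1 and 125 ± 5.51 CPM in controls (SD, n = 3 each), and the log2 fold change of 0.42 (SE 0.11, adjusted p = 0.169) did not pass by edgeR. DESeq2, which called 4.2% of the genes it adjusted, gave an adjusted p of 0.0265. Over the other 13 alternatives the adjusted p of Cd226 ran from 0.0953 to 0.531, and its log2 fold change from 0.38 to 0.45.

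Tigit, the inhibitory receptor for the same ligands, was rare in every library. It had 1, 2 and 8 reads (0.0257, 0.0580 and 0.214 CPM) with IGF-1, against 12, 34 and 78 reads (0.322, 1.02 and 2.17 CPM) in controls. The groups did not overlap, but the control libraries spread widely and control replicate 3 held most of the reads. The log2 fold change of -3.51 (SE 1.16, adjusted p = 0.251, edgeR) did not pass. It was -2.71 with control replicate 3 left out and -4.71 with IGF-1 replicate 3 left out. DESeq2 gave a raw p of 0.00353 and no adjusted p, because the gene fell under that tool's own filter on low means.

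Regulatory T cells carry Tigit, Ctla4 and Icos, and their defining factor Foxp3 had low and uneven levels. It had 0.154, 1.25 and 0.321 CPM with IGF-1, against 2.07, 1.82 and 0.975 CPM in controls (log2 fold change -1.50, SE 0.89, adjusted p = 0.568, edgeR), and Il10 had a single read in all 6 libraries. The 5 listed markers of these cells summed to 1310 to 1470 CPM with IGF-1 and 1190 to 1460 CPM in controls, most of it Capg and Ikzf2. Ikzf4 had 23.5, 22.6 and 34.3 CPM with IGF-1 and 45.2, 62.2 and 52.5 CPM in controls (-0.99, adjusted p = 0.0719, edgeR). Of the 14 listed T cell markers 11 were used here. They summed to 693 to 916 CPM with IGF-1 and 733 to 944 CPM in controls, most of it Trbc2. The coreceptor gene Cd5 stayed under 0.6 CPM and Cd6 had 1 read in all. Other markers were present, with Lat at 76.6 to 110 CPM with IGF-1 and 59.8 to 81.7 CPM in controls. Cd3g had 10.5 to 15.6 CPM with IGF-1 and 4.30 to 11.7 CPM in controls. Of the 7 tested, 4 had a positive log2 fold change (Cd3d the highest, 1.05) and 3 a negative one (Cd247 the lowest, -1.06), and 0 were called by edgeR. The part of other cells in the Tigit values was not tested.

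Ctla4, which competes with CD28 for CD80 and CD86, had 2.70, 2.41 and 4.97 CPM with IGF-1, against 4.83, 3.26 and 10.1 CPM in controls. The groups overlapped, and replicate 3 was the highest library of each. The log2 fold change was -0.85 (SE 0.49, adjusted p = 0.549, edgeR) with all libraries and -0.27 without control replicate 3. Havcr2 (TIM-3, a receptor for galectin-9) had 16.8, 19.5 and 15.3 CPM with IGF-1, against 14.5, 12.6 and 11.3 CPM in controls. Its groups did not overlap, yet the log2 fold change of 0.43 (SE 0.21, adjusted p = 0.469, edgeR) did not pass.

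Cd96 was among the most abundant of the receptors, at 245, 219 and 226 CPM with IGF-1 and 233, 195 and 172 CPM in controls. Its groups overlapped (log2 fold change 0.20, SE 0.14, adjusted p = 0.625, edgeR). Lag3, a receptor for MHC class II and FGL1, had 31, 13 and 5 reads with IGF-1 and 17, 18 and 21 reads in controls (log2 fold change -0.27, SE 0.94, adjusted p = 0.951, edgeR). The groups overlapped, and this SE is larger than the size of the log2 fold change of Cd274. Without IGF-1 replicate 3 the Lag3 value was 0.16.

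Icos, the co-stimulatory receptor for ICOSL, was the member with the highest counts. It had 387, 337 and 396 CPM with IGF-1, against 411, 420 and 440 CPM in controls. Every IGF-1 library lay below every control library, but the log2 fold change of -0.18 (SE 0.11, adjusted p = 0.588, edgeR) was small and did not pass.

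In 5 of the 10 members the groups did not overlap, 3 lower with IGF-1 (Cd274, Tigit and Icos) and 2 higher (Cd226 and Havcr2). Over all genes the groups were separate for 18.0%, with 9.17% lower and 8.81% higher. An unadjusted p under 0.05 was reached on the lower side by 2 members (Cd274 and Tigit, against 6.24% of all genes) and on the higher side by 1 (Cd226, against 5.58%). Of the members, 4 had a positive and 6 a negative log2 fold change, with a median of -0.19, and over all genes the median was -0.013.

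**Figure D2:**
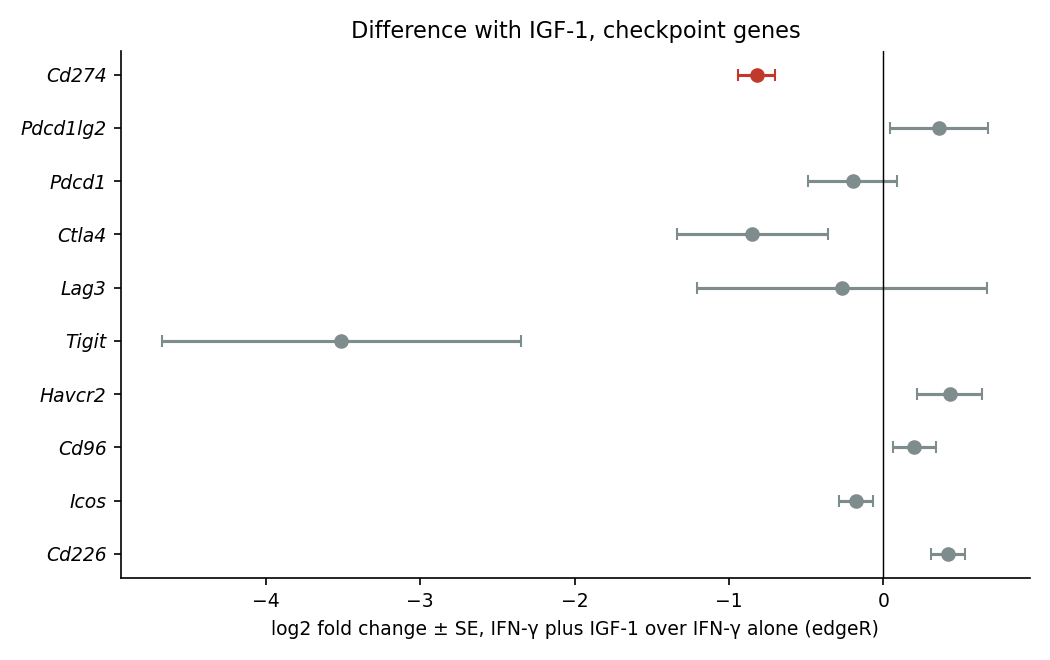
Log2 fold change with IGF-1 over controls for each member, with its standard error as the bar, from edgeR's fit to all genes with 3 libraries per group. Cd274 (red, -0.82) is the member with an adjusted p under 0.05, and Tigit (-3.51) has the widest bar.

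Levels can be compared between genes only per length, here as CPM per kilobase of merged exons in the GENCODE M21 annotation. On that scale Icos averaged 109 with IGF-1 and 123 in controls, and Cd96 averaged 105 with IGF-1 and 91.6 in controls. The ranges of Icos and Cd96 overlapped with IGF-1 (98.3 to 115 and 100 to 112), while in controls Icos (120 to 128) lay above Cd96 (78.6 to 107). Cd226 and Cd274 came next and stood in a different order in each group. With IGF-1 Cd226 had 33.1 to 35.4 CPM per kilobase and Cd274 26.4 to 29.8, and in controls Cd226 had 24.8 to 26.8 and Cd274 46.9 to 53.3. Pdcd1 (mean 11.7 with IGF-1 and 13.4 in controls), Havcr2 (6.31 and 4.70), Pdcd1lg2 (3.58 and 2.79) and Ctla4 (1.44 and 2.60) followed. Lag3 (0.207 and 0.250) and Tigit (0.108 and 1.27) were lowest. With IGF-1, the ranges of Pdcd1, Havcr2 (5.63 to 7.15), Pdcd1lg2 (2.61 to 4.11) and Ctla4 (1.03 to 2.13) did not overlap. In controls the neighbours Pdcd1lg2 (2.22 to 3.13) and Ctla4 (1.40 to 4.33) overlapped, as did Ctla4 and Tigit (0.351 to 2.36).

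A pair of within-library ratios was computed on log2 (CPM + 0.5). The ratio of Cd274 to Irf1, a factor that induces it, was -2.31, -2.58 and -2.42 with IGF-1 and -2.10, -2.03 and -1.98 in controls. The groups did not overlap, and the mean log2 ratio was 0.40 lower with IGF-1. The ratio of Tigit to Cd226 was -8.30, -8.18 and -7.92 with IGF-1 and -7.21, -6.44 and -5.52 in controls. Its difference was -1.75, but it was -0.96 with a pseudocount of 2 CPM and -1.31 without control replicate 3. The groups were separate in this ratio by construction, because Tigit was lower and Cd226 higher without overlap. Its separation and its permutation p therefore add no evidence. With IGF-1, Tigit was at 0.0257 to 0.214 CPM, under the 0.5 CPM added, so that constant weighs heavily in those ratios. Each ratio had an exact two-sided permutation p = 0.1, the smallest possible, and an adjusted p of 0.1 over the 2 ratios.

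**Figure D3:**
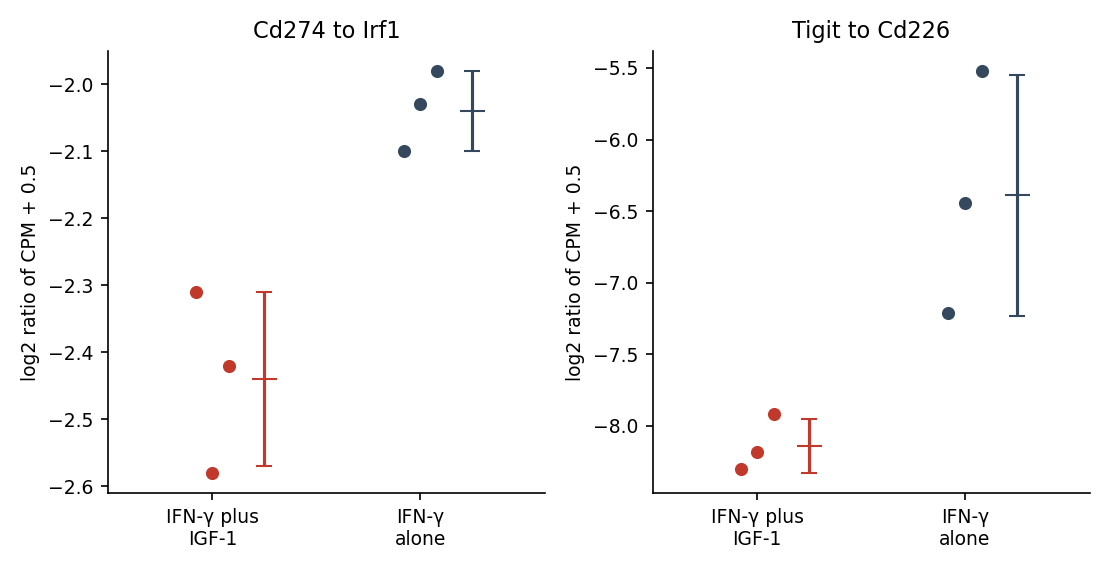
Within-library log2 ratios of Cd274 to Irf1 and of Tigit to Cd226, with 1 point per library, and the mean with its SD over 3 libraries beside the points. In both panels the IFN-γ plus IGF-1 libraries (left) lie below the IFN-γ libraries (right), from -2.58 to -2.31 against -2.10 to -1.98 and from -8.30 to -7.92 against -7.21 to -5.52.

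The genes that act before PD-L1 and in its turnover mostly had lower values with IGF-1, though 0 of 23 passed the edgeR test across all genes. In all, 18 of 23 had a negative log2 fold change, against 51.3% of all genes, and the median was -0.25. An unadjusted p under 0.05 with a lower level was found for 9 of 23 (6.24% of all genes), and the groups did not overlap on the lower side for 11 of 23 (9.17% of all genes). DESeq2 called 8 of the 23 at an adjusted p under 0.05 (4.2% of the genes it adjusted). Socs1, the feedback inhibitor of JAK kinases, had 112, 101 and 86.8 CPM with IGF-1 and 172, 146 and 145 CPM in controls (log2 fold change -0.63, SE 0.14, adjusted p = 0.0938, edgeR). The signalling chain of the IFN-γ receptor, Ifngr2, had 22.6, 22.8 and 24.3 CPM with IGF-1 and 43.7, 37.0 and 33.4 CPM in controls (-0.71, SE 0.16, adjusted p = 0.105). Irf1 had 526, 574 and 583 CPM with IGF-1 and 730, 753 and 764 CPM in controls (-0.42, SE 0.11, adjusted p = 0.142). The NF-kB inhibitor Nfkbia had 177, 174 and 180 CPM with IGF-1 and 265, 224 and 295 CPM in controls (-0.56, SE 0.13, adjusted p = 0.106). In each of these 4 genes, which were named for their small p, the groups did not overlap.

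Ligands and partners of the receptors showed no call by edgeR among the 14 that could be tested of 18 listed. Their log2 fold changes were negative in 10 and positive in 4 (51.3% of all genes were negative), with a median of -0.37. The lowest values, of Cd86 (-1.57, SE 1.29), Cd80 (-1.45, SE 1.09) and Nectin4 (-1.29, SE 1.35), came from genes at or under 1.88 CPM in every library. An unadjusted p under 0.05 was reached by 3 of the 14 by edgeR (11.8% of all genes), and 1 of the 14 was called by DESeq2 (4.2% of the genes it adjusted). Whether counts this small differ from those shares was not tested. The gene called by DESeq2, Lgals3 (galectin-3, reported to bind LAG-3), had 328, 333 and 310 CPM with IGF-1 and 618, 446 and 483 CPM in controls (-0.67, SE 0.14, adjusted p = 0.0783 by edgeR and 0.000226 by DESeq2). Lgals9 (galectin-9, the TIM-3 ligand) had 179, 220 and 178 CPM with IGF-1 and 175, 146 and 120 CPM in controls (0.39, SE 0.16, adjusted p = 0.361). Crtam, a receptor of the nectin-like family, had 6.67, 3.02 and 4.30 CPM with IGF-1 and 2.77, 1.97 and 2.17 CPM in controls (1.02, SE 0.44, adjusted p = 0.401). The groups did not overlap in Lgals3, Lgals9 or Crtam, which were named for their small p, so their separation adds no evidence. Of the 14 tested, the groups were separate on the higher side for 2 (8.81% of all genes) and on the lower side for 1 (9.17%). The CD80 and CD86 receptor Cd28, next to Ctla4 and Icos on chromosome 1, had 2.24, 1.86 and 0.908 CPM with IGF-1 and 3.20, 1.11 and 6.49 CPM in controls (-1.11, SE 0.67, adjusted p = 0.571). Rgmb, a ligand of PD-L2, had -0.38 (SE 0.28, adjusted p = 0.666).

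Other checkpoint genes included 2 that rose with IGF-1, out of 14 tested of 19 listed. Cd160, a receptor for HVEM, had 67.2, 101 and 72.3 CPM with IGF-1 and 31.1, 22.4 and 32.9 CPM in controls (1.48, SE 0.20, adjusted p = 0.0201, edgeR). Cd244a (2B4, the receptor for CD48) had 51.3, 61.0 and 63.2 CPM with IGF-1 and 25.9, 26.3 and 21.5 CPM in controls (1.25, SE 0.16, adjusted p = 0.0143). Higher calls made up 0.23% of all genes tested. Both calls held without control replicate 1 and were lost without any of the other 5 libraries (adjusted p from 0.0572 to 0.122 for Cd160 and from 0.0571 to 0.122 for Cd244a). Natural killer cells and ILC1s also carry both receptors. Their 11 listed markers summed to 195 to 213 CPM with IGF-1 and 153 to 160 CPM in controls, with Eomes and Klra8 at 0 throughout. Most of that difference was Ncr1 (NKp46, also found on ILC3s), at 66.9 to 79.1 CPM with IGF-1 and 27.4 to 29.5 CPM in controls (1.34, SE 0.14, adjusted p = 0.00903, edgeR). Of the 7 markers tested, 5 had a positive log2 fold change, Prf1 (1.42, adjusted p = 0.204, edgeR) among them. The 2 negative ones were Gzma (-0.35) and Klrb1c (NK1.1), which had 26.7, 29.6 and 35.8 CPM with IGF-1 and 42.5, 32.9 and 39.3 CPM in controls (-0.32). The part of such cells in these values was not tested. Vsir (VISTA) had 7.65, 12.2 and 15.2 CPM with IGF-1 and 18.1, 23.4 and 23.1 CPM in controls (-0.88, SE 0.26, adjusted p = 0.204). The "don't eat me" signal Cd47 had 350, 335 and 355 CPM with IGF-1 and 472, 487 and 488 CPM in controls (-0.48, SE 0.10, adjusted p = 0.0950), and Klrc1 (NKG2A) had a log2 fold change of 0.39 (SE 0.14, adjusted p = 0.293). The groups did not overlap in Cd160, Cd244a, Vsir, Cd47 or Klrc1, which were named for their small p, so their separation adds no evidence. Of the 14 tested, the groups were separate on the higher side for 5 (8.81% of all genes) and on the lower side for 4 (9.17%).

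Below the inhibitory receptors, 1 of 10 tested genes fell. Dgka, a lipid kinase that ends diacylglycerol signalling, had 53.1, 52.8 and 53.2 CPM with IGF-1 and 107, 102 and 85.8 CPM in controls (-0.89, SE 0.13, adjusted p = 0.0224, edgeR). Lower calls made up 0.267% of all genes. The Dgka call held without control replicate 1 and was lost without any of the other 5 libraries (adjusted p from 0.0718 to 0.144). Ptpn6 (the phosphatase SHP-1) had 141, 136 and 146 CPM with IGF-1 and 116, 106 and 109 CPM in controls (0.36, SE 0.11, adjusted p = 0.229). Pag1, an adaptor that brings the kinase CSK to the membrane, had 29.6, 30.1 and 29.2 CPM with IGF-1 and 16.8, 22.1 and 20.7 CPM in controls (0.58, SE 0.17, adjusted p = 0.203), Sh2d1b1 (EAT-2, an adaptor of 2B4) 0.60 (SE 0.23, adjusted p = 0.334) and Csk 0.28 (SE 0.14, adjusted p = 0.477). Of the factors that drive checkpoint receptors in T cells, 13 of 14 could be tested, 0 were called by edgeR or DESeq2, and 0 had an unadjusted edgeR p under 0.05. Their median was -0.04, with Maf at 0.33 (SE 0.16, adjusted p = 0.458), Tox2 at 0.24 (SE 0.17, adjusted p = 0.625), Tox at -0.28 (SE 0.16, adjusted p = 0.527) and Nr4a2 at -0.58 (SE 0.53, adjusted p = 0.743).

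**Figure D4:**
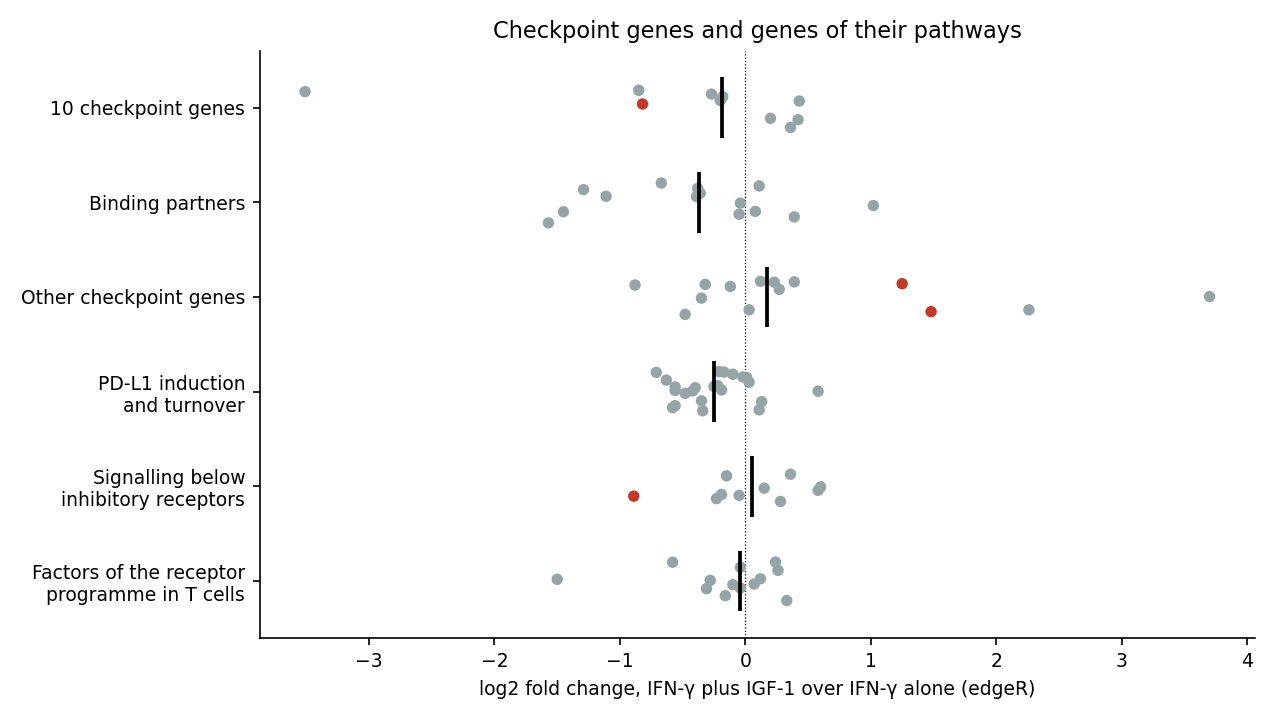
Log2 fold change with IGF-1 over controls for the 10 checkpoint genes and for the tested genes of 5 further lists, 1 point per gene, with the median as a black bar and genes at an adjusted p under 0.05 in red. The red points are Cd274 (-0.82), Cd160 (1.48), Cd244a (1.25) and Dgka (-0.89).

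Across the 6 libraries, the genes whose level followed that of Cd274 most closely were Cysltr1 (a receptor for cysteinyl leukotrienes), Lratd2, Cd47, Resf1 and Klf6 (a zinc-finger transcription factor). Their Pearson r with Cd274 on log2 (CPM + 0.5) was 0.997, 0.997, 0.997, 0.996 and 0.994 in that order, among 8335 genes of at least 10 CPM. This is a description of 6 points in 2 groups, and any gene with tight and separated groups scores high. Resf1 had 339, 307 and 339 CPM with IGF-1 and 536, 605 and 672 CPM in controls (log2 fold change -0.88, SE 0.12, adjusted p = 0.0207, edgeR). Cysltr1 had 148, 141 and 148 CPM with IGF-1 and 211, 217 and 231 CPM in controls (-0.59, SE 0.11, adjusted p = 0.0592).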

How the data were processed

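The authors deposited 1 table of raw counts, with a row per gene and a column per library. Its libraries are full-length SMART-Seq HT ones, as the labels' protocols say, a kit that does not mark strand. The build GRCm39 is named in the submitters' processing notes, as are featureCounts 1.5.3, SAMtools 1.15.1, HISAT2 2.2.1 and fastp 0.23.2. No source used here gives the annotation, the strand setting or how multi-mapped reads were handled. In GENCODE M21 the exons of Cd274 overlap 1 gene of the opposite strand, AC119228.1, from which unstranded reads cannot be told apart, and those of the other 9 members overlap none.

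Genes were filtered with filterByExpr (minimum count 10, minimum total 15), which kept 13483 of 33157 rows, all 10 members among them, and removed 0.0806% of the counts. The test was edgeR's quasi-likelihood F-test (version 4.0.16, run in R 4.3.3, after TMM scaling, through glmQLFit and glmQLFTest, with group as the only term), with Benjamini-Hochberg adjustment over all genes at 0.05. The SE is the size of the log2 fold change divided by the square root of F. For this comparison, 3 simulated datasets were drawn for the 13483 genes. Changes were given only to genes with a mean of at least 10 CPM. Of the genes given a log2 fold change of 1, edgeR called 84.3%, and of unchanged genes 0.0933%. The 84.3% does not cover Pdcd1lg2, Ctla4, Lag3 or Tigit, whose means were under 10 CPM in both groups. Changes smaller than 1 were not simulated. The log2 fold changes of Cd274, Pdcd1, Havcr2, Cd96, Icos and Cd226 were all smaller in size than 1. The 84.3% therefore gives no recovery rate for changes of their size. Replicates of a group differed by more than sampling noise (chi-square per degree of freedom from 38.7 to 89.3), so none was a copy of another's counts. This does not tell separate mice from separate preparations of the same cells. The reads carry no molecular identifiers and may repeat 1 molecule.

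Alternatives were other scalings (library size, RLE, upper quartile), DESeq2 1.42.0, limma-voom (limma 3.58.1), no filter, a stricter filter (10 CPM in 3 libraries), the replicate number as a block, and each library left out. Promoters were matched by symbol for 7 of 10 members. The members, lists and tests were chosen with earlier results of these data known. From each further list up to 5 genes with the smallest p were named, and all that passed. Some genes that this rule names are not reported here.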

Additional observations from a re-analysis of the deposited data

How the results depend on the processing

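The direction of the log2 fold change was the same in 465 of 467 recomputed values of 34 named genes other than Cd274 over 14 alternatives. The exceptions were Pdcd1 without control replicate 1 (0.24) and Lag3 without IGF-1 replicate 3 (0.16). With 1 library left out, Pdcd1 ran from -0.44 to 0.24 and Lag3 from -1.04 to 0.16. The same-numbered replicates did not deviate together (correlations of -0.0849, -0.0155 and 0.106), so the replicate block is a fit to shared numbers only; it called 8 genes in all, 0 of the 10 members and 0 of the other list genes (3 of 10 and 23 of 74 at an unadjusted p under 0.05, against 11.2% of all genes), and Cd274 stood at -0.82 (adjusted p = 0.0816, edgeR). Genes called over the whole table numbered 67 with all libraries, 456 by DESeq2, 429 with no filter, 178 with the stricter filter, and 0 to 55 with 1 library left out. Members called numbered 1 with all libraries, 2 by DESeq2 (Cd274 and Cd226), and 0 to 1 with 1 library left out. The other list genes called numbered 3 with all libraries, 14 by DESeq2, 11 with no filter, 8 with the stricter filter, and 0 to 4 with 1 library left out. At an unadjusted p under 0.05 the fits with 1 library left out had 2 to 5 of 10 members and 19 to 29 of 75 or 76 other list genes, against 7.44% to 15.6% of all genes. With 1 library left out, Cd274 ran from -0.87 to -0.77. The cause of these shifts in calls was not tested, beyond the smaller number of libraries or of genes tested that each setting has by construction. Few reads and a wide spread between libraries, which were not told apart, limit what can be said of Tigit (11 reads with IGF-1 and 124 in controls over 3 libraries each) and Lag3 (49 with IGF-1 and 56 in controls).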

Other observations

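Outside the genes named by rule, and chosen after their values were seen, Btla (an inhibitory receptor that shares the ligand HVEM with CD160) had 1.08, 0.754 and 0.428 CPM with IGF-1 and 0.161, 0 and 0 CPM in controls, and its difference did not pass the edgeR test (adjusted p = 0.319). The partner genes Cd80 and Cd86 were each under 2 CPM in all 6 libraries. Pvr, a ligand of TIGIT, CD96 and CD226, had 23.3, 26.2 and 26.8 CPM with IGF-1 and 21.4, 19.7 and 31.1 CPM in controls.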
